A study of Homo sapiens with 6 samples.

Results

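Tight junctions seal the space between neighbouring epithelial cells. Their strands are built from claudins, small tetraspan membrane proteins whose mix sets which ions and solutes can pass, together with the MARVEL-domain proteins occludin and tricellulin. Scaffold proteins of the zonula occludens (ZO) family bind the tails of most claudins from inside the cell and tie the strands to actin. The RNA-seq values of 9 genes of this structure, found by gene name in the deposited count table of 21494 genes, were compared between samples labelled with a control shRNA and samples labelled with an shRNA against VprBP. The genes were CLDN1, CLDN3, CLDN4, CLDN7 and CLDN12 among the claudins, OCLN (occludin) and MARVELD2 (tricellulin) among the MARVEL-domain proteins, and TJP1 (ZO-1) and TJP3 (ZO-3) among the scaffolds. All 9 passed the filter on low counts.

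The samples were 3 labelled as expressing a control shRNA (Control sh, genotype WT) and 3 labelled as expressing an shRNA against DCAF1, the gene that encodes VprBP (VprBP sh, genotype DCAF1 Knockdown). In the study's methods the cells were G361, a human melanoma line, carrying a single lentiviral shRNA and selected with puromycin. The labels name G361 as the cell line and LD611 as the source in all 6 samples, and neither the labels nor the methods say that the replicates were separate cultures, so p-values measure only the spread between these samples. Total estimated counts ran from 18195926 to 26883925 per sample. The threshold for a call was an adjusted p under 0.05 (Benjamini-Hochberg, edgeR quasi-likelihood test) together with a fold change over 2, and "rose" or "fell" is used only of called genes. Levels are normalized counts, that is counts divided by upper quartile factors, given as mean ± SD with n = 3 per group. In such bulk samples fewer cells of a type and less RNA per cell cannot be told apart.

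DCAF1 was read out first because it is the target of the shRNA. It gave 688, 893 and 884 counts in the Control sh samples and 681, 488 and 628 in those of VprBP sh, and its log2 fold change was -0.58 ± 0.17 (SE, edgeR adjusted p = 0.0125), which is under 2-fold. After scaling, replicate 1 of VprBP sh stood at 753 normalized counts, close to replicate 1 of Control sh at 789. Replicates 2 and 3 of VprBP sh stood at 502 and 477, while Control sh ran from 789 to 961. Group means were 860 ± 89.7 and 577 ± 153, without overlap of the groups. Among all genes tested, 79.5% had no overlap of the groups and 76.4% had an adjusted p under 0.05 in edgeR. These are RNA values, and the study also examined its knockdown cells by Western blot. Scaled by library size alone, the adjusted p of DCAF1 in edgeR was 0.0851. Markers did not follow the melanoma label in either group. For the counts of markers called, the share over all genes tested was 46.4%, 24.5% higher and 22.0% lower. Of 8 melanocyte markers, 4 were in the table and 2 were tested, neither of them called. MITF reached at most 312 counts and PMEL at most 46 in any sample, and the list summed to between 197 and 234 normalized counts across Control sh and between 242 and 305 across VprBP sh. Of 6 epithelial markers, all tested, KRT8 and KRT19 rose and 4 were not called, with summed levels of 107360 to 109990 and 121210 to 160920 normalized counts. All 6 basal epithelial markers fell, from a summed 230610 to 244080 to a summed 5162 to 6710 normalized counts. KRT14 alone had 62464, 75812 and 86797 counts under the control shRNA against 10, 2 and 1 under the VprBP shRNA. Of 7 urothelial markers 5 were tested, of which 2 rose and 2 fell (summed levels 1479 to 1570 and 2782 to 3312). GATA3 rose from 7, 1 and 0 counts to 1580, 1334 and 1873, and UPK1B fell from 500, 641 and 709 to 0, 0 and 0. Of 6 mesenchymal markers 5 were tested, of which 1 rose and 4 fell (31614 to 34849 and 251 to 342). Most of that sum was FN1, at 31581 ± 1991 against 268 ± 66.5 normalized counts. VIM, the marker that rose, had 0, 1 and 0 counts against 50, 24 and 17. Of 5 endothelial markers 4 were tested and 3 fell (690 to 724 and 29.8 to 41.0), and of 4 immune markers only CD68 was in the table, and it fell. These values moved with the same split of samples as every comparison given here, and their part in those comparisons was not tested. AMOT (1, 0 and 0 counts against 5841, 5712 and 7835) and TP63 (8840 ± 1005 against 9.35 ± 0.97 normalized counts) likewise went from near absence to high levels or the reverse. Whether the groups hold the same cells was not tested, and a difference in cell identity and the effect of the shRNA cannot be told apart in any comparison given here. Replicate 1 stood apart in both groups. The chi-square per degree of freedom was 2.50 and 2.36 between replicates 2 and 3 of Control sh and of VprBP sh, against 17.6 to 29.1 for pairs with replicate 1.

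Promoter sequences are shown for the claudins that carry the comparison, CLDN7, CLDN3 and CLDN4, which rose, and CLDN1, which fell. Each line gives 270 bases, 250 before and 20 after the start of the RefSeq transcript on GRCh38.p14, read in the direction of the gene. In each of these 4 genes that start is also the start of the canonical GENCODE 44 transcript. Capitals mark the E-box letters CAGGTG on either strand, the core bound by zinc finger repressors of the Snail and ZEB families.
CLDN7 (chr17:7262459-7262728, minus strand): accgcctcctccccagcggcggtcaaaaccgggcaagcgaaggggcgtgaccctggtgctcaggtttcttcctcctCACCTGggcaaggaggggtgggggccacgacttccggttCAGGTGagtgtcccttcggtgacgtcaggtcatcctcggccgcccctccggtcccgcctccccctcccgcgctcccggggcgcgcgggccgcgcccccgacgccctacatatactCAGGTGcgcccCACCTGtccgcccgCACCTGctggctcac
CLDN3 (chr7:73770251-73770520, minus strand): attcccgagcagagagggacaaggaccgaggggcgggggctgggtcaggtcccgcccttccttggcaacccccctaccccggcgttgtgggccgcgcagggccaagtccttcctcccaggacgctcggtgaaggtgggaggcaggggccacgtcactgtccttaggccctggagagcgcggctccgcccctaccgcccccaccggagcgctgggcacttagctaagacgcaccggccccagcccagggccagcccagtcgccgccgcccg
CLDN4 (chr7:73830746-73831015, plus strand): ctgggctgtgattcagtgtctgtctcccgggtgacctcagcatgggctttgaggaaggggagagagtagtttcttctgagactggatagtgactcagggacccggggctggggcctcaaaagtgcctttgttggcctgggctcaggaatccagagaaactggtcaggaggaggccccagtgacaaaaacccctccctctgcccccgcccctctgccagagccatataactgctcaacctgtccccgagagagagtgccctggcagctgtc
CLDN1 (chr3:190322427-190322696, minus strand): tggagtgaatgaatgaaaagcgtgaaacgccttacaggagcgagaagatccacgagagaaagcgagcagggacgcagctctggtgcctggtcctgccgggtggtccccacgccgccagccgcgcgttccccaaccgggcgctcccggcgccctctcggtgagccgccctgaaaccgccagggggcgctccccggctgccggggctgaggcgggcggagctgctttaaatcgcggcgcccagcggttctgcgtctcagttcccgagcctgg
The window of CLDN7 held 5 matches, at positions -174, -135, -20, -9 and +6 from the transcript start. In the full windows of 300 bases, which run 50 bases past the start, CLDN3 held 1 match, at +37 and so beyond the bases shown, and CLDN1 and CLDN4 held 0. Among 34943 RefSeq windows of the same length, 20.6% held at least 1 match and 0.0916% held 5 or more. Over the 15 windows of the 9 genes 6 (40%) held a match. These lay in CLDN3, CLDN7 and TJP3, which rose, and in OCLN and TJP1, which were not called. For TJP3 and TJP1 the match lay at another transcript start, and the window of the canonical start held 0. Another window of CLDN7 held 0 as well, and the windows of OCLN overlap each other. No match was found for CLDN1 and CLDN12, which fell, for CLDN4, which rose, or for MARVELD2, which was not called. Whether the letters bear on these values was not tested. The GC box GGGCGG, searched on both strands, was found in 44.9% of all windows, and 6 matches lay in the window of CLDN3, 2 in each of the windows of CLDN1 and CLDN7 shown here and 1 in that of CLDN4. The window of CLDN4 was the poorest of the 4 in CpG, with 5 against 24 in CLDN3, 30 in CLDN7 and 31 in CLDN1, where the median of all windows was 14.

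Of the 9 genes, 6 were called, CLDN3, CLDN4, CLDN7 and TJP3 as higher and CLDN1 and CLDN12 as lower in VprBP sh. Among all 16756 genes tested, 46.4% were called, 24.5% higher and 22.0% lower, so calls were common among all genes as well. The values of the groups did not overlap for any of the 9 genes, which was also true of 79.5% of all genes tested, 42.2% with VprBP sh higher and 37.3% with it lower. The median log2 fold change was 0.58 over the 9 genes and 0.08 over all genes tested. An exact two-sided permutation test of a single gene gave p = 0.1 for each of the 9, the smallest that 3 samples against 3 allow. With replicate 1 of both groups left out, the same 6 genes were called in edgeR (8179 genes in all), with log2 fold changes of -3.32 for CLDN1, -1.54 for CLDN12, 9.32 for CLDN3, 2.04 for CLDN4, 2.01 for CLDN7 and 3.13 for TJP3, against 0.51 for OCLN, 0.36 for MARVELD2 and -0.87 for TJP1. DCAF1 was at -0.87 in that fit.

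**Figure D1:**
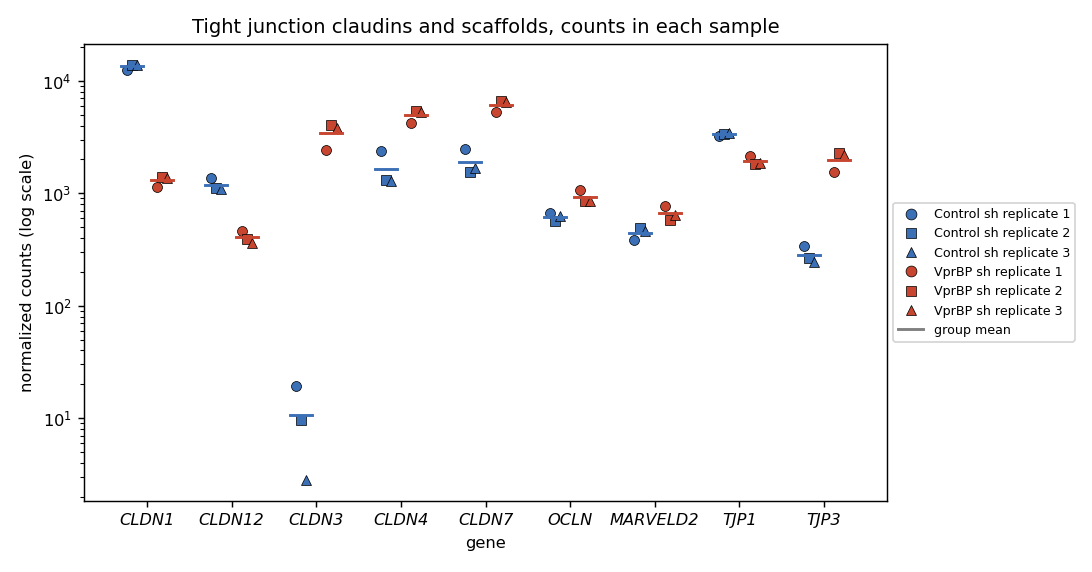
Normalized counts on a log scale for each of the 9 genes in each sample, with Control sh in blue, VprBP sh in red, a marker shape for each replicate number and a horizontal line at each group mean. The groups are apart for every gene, widest for CLDN3 with means of 10.7 and 3432, and narrowest for OCLN and MARVELD2.

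CLDN1 encodes claudin-1, the claudin required for the water barrier of the skin. Its gene (ENSG00000163347.6) is read from the minus strand of chromosome 3, between 190305707 and 190322446 on hg38, and its canonical transcript has 4 exons. It gave 10941, 12918 and 14760 counts in the Control sh samples and 1037, 1352 and 1818 in those of VprBP sh. Every VprBP sh sample was thus far below every Control sh sample, also after scaling. Normalized counts were 13436 ± 764 and 1306 ± 138, the log2 fold change being -3.36 ± 0.11 (SE, edgeR adjusted p = 5.75e-09), or 10.3-fold lower. CLDN1 fell more than any other gene of the 9 and yet kept at least 1037 counts in each VprBP sh sample.

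CLDN12 encodes claudin-12, an atypical claudin whose tail lacks the usual PDZ-binding end. The gene (ENSG00000157224.16) spans 90383721 to 90513402 on the plus strand of chromosome 7. Counts were 1186, 1026 and 1168 in Control sh and 417, 382 and 479 in VprBP sh, with no overlap. Its level went from 1187 ± 151 to 406 ± 50 normalized counts, the log2 fold change being -1.55 ± 0.13 (SE, edgeR adjusted p = 3.58e-06). Exons of the gene share bases with exons of GTPBP10, CDK14 and PTTG1IP2 on the same strand, so that part of its counts is uncertain. GTPBP10 and CDK14 had log2 fold changes of -0.56 and -0.57 and were not called.

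CLDN3 encodes claudin-3, a receptor of Clostridium perfringens enterotoxin and a common claudin of simple epithelia. It is a single-exon gene (ENSG00000165215.6) on chromosome 7 (minus strand, 73768997 to 73770270). Counts were low in Control sh, at 17, 9 and 3, and reached 2211, 3922 and 5032 in VprBP sh. In normalized counts the samples stood at 19.5, 9.69 and 2.82 in Control sh and at 2444, 4034 and 3819 in VprBP sh. The lowest Control sh value was in replicate 3 and the lowest VprBP sh value in replicate 1. The log2 fold change was 8.38 ± 0.37 (SE, edgeR adjusted p = 4.30e-08). Its size rests on few control counts, being 9.12 when replicate 1 of Control sh was left out, 7.88 when replicate 3 was, and 9.32 with replicate 1 of both groups left out.

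CLDN4, the gene of claudin-4, which binds the same toxin, lies 29.3 kb from CLDN3 in the annotation, on the plus strand (ENSG00000189143.10, 73799542 to 73832690). It was well expressed in both groups, with 2055, 1215 and 1365 counts in Control sh against 3822, 5215 and 6949 in VprBP sh. Replicate 1 was the highest Control sh sample, at 2358 normalized counts against 1308 and 1281, and also the lowest VprBP sh sample, at 4224 against 5364 and 5273. Group means were 1649 ± 614 and 4954 ± 634 normalized counts, the log2 fold change being 1.59 ± 0.22 (SE, edgeR adjusted p = 0.000117), or 3.01-fold higher. CLDN3 and CLDN4 thus rose together from very different starting levels.

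CLDN7 encodes claudin-7, which binds the adhesion protein EpCAM at the sides of epithelial cells. Its gene (ENSG00000181885.18) is read from the minus strand of chromosome 17, between 7259903 and 7263983. Counts were 2179, 1448 and 1789 in Control sh and 4805, 6411 and 8554 in VprBP sh. The pattern over replicates was that of CLDN4, with replicate 1 highest in Control sh (2500 normalized counts against 1558 and 1679) and lowest in VprBP sh (5311 against 6595 and 6491). Means were 1912 ± 513 and 6132 ± 713 normalized counts, the log2 fold change being 1.68 ± 0.17 (SE, edgeR adjusted p = 1.46e-05). The gene overlaps the end of ELP5 on the opposite strand, where ELP5 went from 773 ± 98.3 to 481 ± 2.07 normalized counts and was not called. On the same strand, exons of the protein-coding gene ENSG00000262302 (7246829 to 7262089) share bases with exons of CLDN7, so that part of its counts is uncertain.

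Occludin and tricellulin, the tetraspan partners of the claudins at bicellular and tricellular contacts, had log2 fold changes close to each other. OCLN (ENSG00000197822.12, chromosome 5, 69492292 to 69558104) gave 576, 531 and 665 counts in the Control sh samples and 976, 823 and 1135 in those of VprBP sh. Its level was 619 ± 45 against 929 ± 130 normalized counts, the log2 fold change being 0.58 ± 0.12 (SE, edgeR adjusted p = 0.0016). MARVELD2 (ENSG00000152939.17), 48.0 kb before it on the same strand, gave 336, 455 and 492 counts in the Control sh samples and 694, 563 and 842 in those of VprBP sh. Its level was 446 ± 53.9 against 662 ± 96.0 normalized counts, the log2 fold change being 0.57 ± 0.14 (SE, edgeR adjusted p = 0.00416). Neither gene reached 2-fold, and neither was called, although the adjusted p was under the threshold, as it was for 76.4% of all genes tested. Replicate 1 was the highest VprBP sh sample for both, opposite to CLDN3, CLDN4, CLDN7 and TJP3. Of the 6 values of OCLN, 4 were more than 0.1 away from a whole number in the deposited table, so its counts are estimates that are not whole reads. The same held for 3 values of CLDN4, 1 value of CLDN7 and no value of the other 6 genes.

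The scaffolds had log2 fold changes of opposite sign. TJP1 encodes ZO-1, the founding scaffold of the junction, and lies on the minus strand of chromosome 15 (ENSG00000104067.17, 29699367 to 29968915). It gave 2832, 3118 and 3637 counts in the Control sh samples and 1931, 1775 and 2459 in those of VprBP sh. Means were 3340 ± 83.2 and 1942 ± 168 normalized counts, the log2 fold change being -0.78 ± 0.09 (SE, edgeR adjusted p = 2.10e-05), 1.72-fold lower and so not called. TJP3 encodes ZO-3, the paralogue most restricted to epithelia, and lies on the plus strand of chromosome 19 (ENSG00000105289.15, 3708362 to 3750813). It gave 294, 245 and 259 counts in the Control sh samples and 1405, 2205 and 2856 in those of VprBP sh. Means were 281 ± 49.6 and 1996 ± 387 normalized counts, the log2 fold change being 2.83 ± 0.18 (SE, edgeR adjusted p = 4.35e-07), or 7.11-fold higher. After scaling, replicate 1 was again the highest Control sh sample and the lowest VprBP sh sample for TJP3. The end of TJP3 shares exon bases with APBA3 on the opposite strand, which had a log2 fold change of -0.40 and was not called.

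To compare genes with each other, normalized counts were divided by the union length of their annotated exons. In the MARVEL family the third gene, MARVELD3, which was named after its values were seen, rose from 412 ± 14.5 to 1443 ± 84.5 normalized counts (log2 fold change 1.81 ± 0.09 SE, edgeR adjusted p = 1.35e-07). Its share of the per-kilobase level of the family was 32.0% ± 1.80 under the control shRNA and 52.6% ± 4.91 under the VprBP shRNA (SD, n = 3). That of MARVELD2 was 40.9% ± 4.15 and 28.4% ± 3.04 and that of OCLN 27.1% ± 2.49 and 19.0% ± 1.95. These shares and their order hold for union lengths only. Union and canonical lengths are 6347 and 2914 bases for MARVELD3, 5366 and 4423 for MARVELD2, and 11259 and 6181 for OCLN. MARVELD3 shortens the most in proportion, so its share would be larger with canonical lengths. With those, MARVELD2 and OCLN overlapped in Control sh, at 101 ± 12.2 and 100 ± 7.28 normalized counts per kilobase.

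The claudin mix was not the same in the groups. Summed over the 16 numbered claudins in the table, normalized counts were 19798, 18981 and 18929 in Control sh and 16234, 20495 and 19939 in VprBP sh, so the groups overlapped (means 19236 ± 487 and 18889 ± 2317, exact two-sided permutation p = 1). Per kilobase the sum was 5418 ± 153 and 7817 ± 1111, without overlap (exact two-sided permutation p = 0.1, the smallest possible here). CLDN1 made up 61.9%, 71.7% and 71.8% of the per-kilobase sum in the Control sh samples and 4.83%, 4.46% and 4.57% in the VprBP sh samples. CLDN3 went the other way, from 0.274%, 0.142% and 0.0416% to 29.3%, 36.9% and 36.0%. CLDN7 made up 14.1% ± 3.35 in Control sh and 31.6% ± 0.90 in VprBP sh, and CLDN4 6.44% ± 2.20 and 13.5% ± 0.22. CLDN12 was a minor part in both groups, at 3.26% ± 0.32 and 0.794% ± 0.222. Lengths matter here, since the exon union of CLDN4 is 4699 bases and its canonical transcript 1695 bases. With canonical lengths CLDN4 came to 13.8% in Control sh and 25.7% in VprBP sh, and CLDN3 to 23.4% in VprBP sh. With no length correction CLDN3 made up 17.96% of the claudin counts of VprBP sh, below CLDN7 at 32.5% and CLDN4 at 26.2%, and CLDN12 2.19%. The share of CLDN1 over these length choices lay between 56.3% and 70.0% for Control sh and between 3.34% and 6.92% for VprBP sh.

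**Figure D2:**
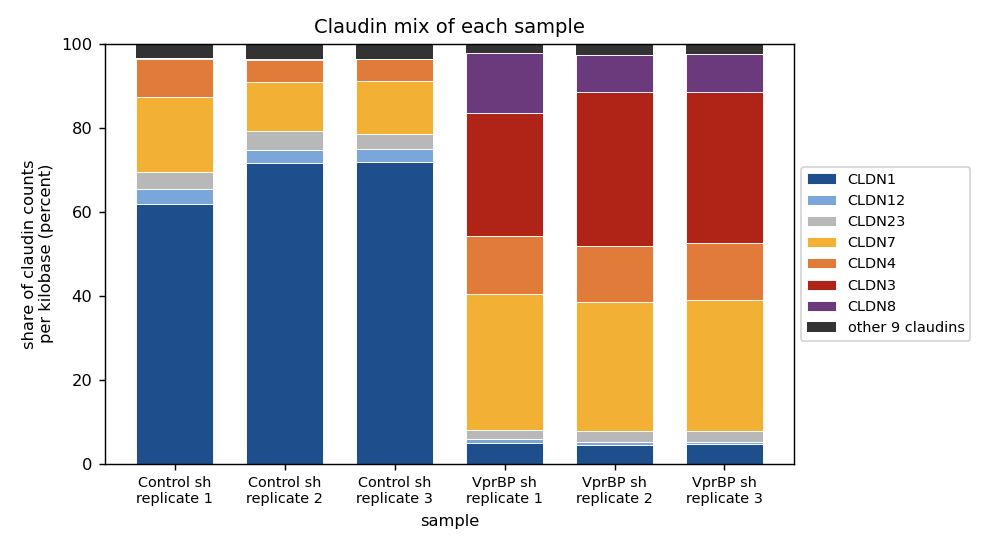
Share of each claudin in the summed claudin counts per kilobase of exon, in percent, for each of the 6 samples, with 9 minor claudins drawn together. CLDN1 fills 61.9% to 71.8% of the bars of Control sh, and CLDN3, CLDN7, CLDN4 and CLDN8 fill most of the bars of VprBP sh.

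On the same per-kilobase scale, the order of the 9 genes in Control sh was CLDN1 at 3703 ± 211, CLDN7 at 767 ± 206, CLDN4 at 351 ± 131, TJP1 at 295 ± 7.35, CLDN12 at 177 ± 22.4, MARVELD2 at 83.1 ± 10.04, TJP3 at 71.0 ± 12.5, OCLN at 55.0 ± 3.995 and CLDN3 at 8.37 ± 6.58 normalized counts per kilobase. In that order the samples of CLDN4 and TJP1 overlapped, as did those of MARVELD2 and TJP3, and the other neighbours did not. In VprBP sh the order was CLDN3 at 2694 ± 677, CLDN7 at 2461 ± 286, CLDN4 at 1054 ± 135, TJP3 at 504 ± 97.7, CLDN1 at 360 ± 38.1, TJP1 at 172 ± 14.8, MARVELD2 at 123 ± 17.9, OCLN at 82.5 ± 11.5 and CLDN12 at 60.5 ± 7.45. Here CLDN3 and CLDN7 overlapped and the other neighbours did not. CLDN3 was thus last in Control sh and overlapped with CLDN7 at the top in VprBP sh. With canonical transcript lengths CLDN7 led in VprBP sh, at 3977 ± 463, and CLDN4 and CLDN3 overlapped below it, while CLDN1 led in Control sh under union, canonical and longest transcript lengths.

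Further claudins changed in both directions. Of 21 other claudin and claudin-domain genes listed, 12 were in the table and 9 were tested. Of the 9 tested, 3 rose, 3 fell and 3 were not called, with a median log2 fold change of 0.04. Among all genes tested 46.4% were called, 24.5% higher and 22.0% lower. CLDN8, a claudin of tight epithelia such as the collecting duct, gave 6, 9 and 7 counts in the Control sh samples and 1770, 1511 and 2055 in those of VprBP sh (log2 fold change 7.76 ± 0.20 SE, edgeR adjusted p = 1.82e-09). It made up 10.6% ± 3.17 of the claudin level per kilobase in VprBP sh. CLDN10 had 0, 2 and 0 counts against 155, 371 and 456, and CLDN2, a pore-forming claudin of leaky epithelia, had 14, 1 and 3 counts against 23, 61 and 61. CLDN16 fell from 124, 137 and 154 counts to 7, 4 and 4, and CLDN11, known from myelin and the Sertoli cell barrier, from 115, 209 and 250 counts to 0, 6 and 3. CLDND1, a claudin-domain gene outside the numbered family, fell from 2376 ± 71.8 to 637 ± 8.94 normalized counts.

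Of 41 other tight junction genes listed, 36 were tested. Where 46.4% of all genes tested were called, 24.5% higher and 22.0% lower, 12 of the 36 rose, 4 fell and 20 were not called. Their median log2 fold change was 0.32, against 0.08 over all genes. Among those that rose, PATJ, a polarity scaffold of the Crumbs complex, went from 1472 ± 141 to 3358 ± 250 normalized counts and MAGI3, a scaffold with PDZ domains, from 334 ± 26.5 to 2464 ± 213. AMOT, the gene of angiomotin, gave 1, 0 and 0 counts in the Control sh samples and 5841, 5712 and 7835 in those of VprBP sh. Among those that fell, F11R, which encodes the junctional adhesion molecule JAM-A, went from 14390 ± 1171 to 5041 ± 381 normalized counts (log2 fold change -1.51 ± 0.09 SE, edgeR adjusted p = 4.23e-07). YBX3, the ZO-1-binding transcription factor ZONAB, went from 17382 ± 1808 to 6192 ± 928. AMOTL1 and PARD6G fell as well, with log2 fold changes of -1.14 and -1.33. CGN (cingulin), CXADR and LSR, which were named after their values were seen, were not called, with log2 fold changes of -0.04, -0.18 and 0.06.

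**Figure D3:**
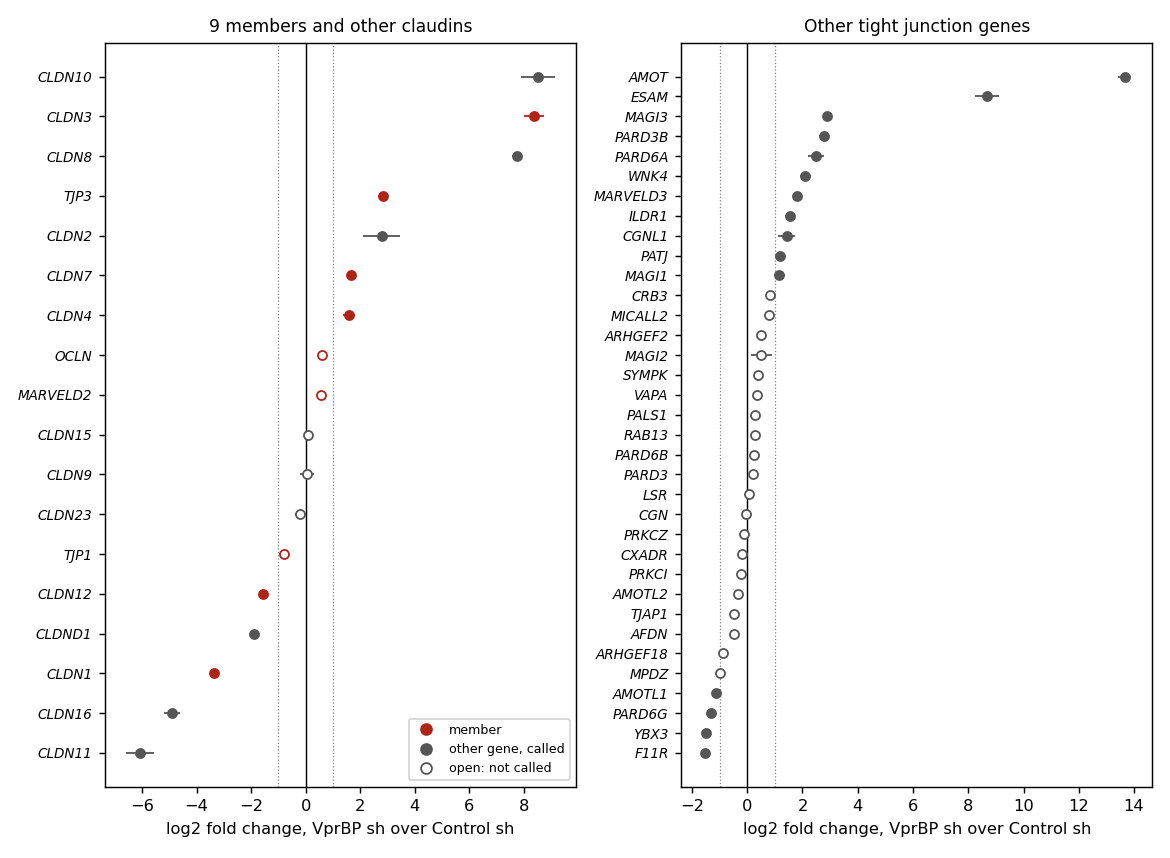
Log2 fold change of VprBP sh over Control sh with its standard error as bars, on the left for the 9 genes (red) and 9 other claudins (grey), on the right for other tight junction genes. Filled points are called genes, open points are not, dotted lines mark 2-fold, and the fitted positions of AMOT, ESAM and CLDN10 rest on at most 2 counts in Control sh.

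Adherens junctions, the cadherin and nectin contacts below the tight junction, were listed too. Of 15 adherens junction genes, 14 were tested, of which 1 rose, 4 fell and 9 were not called, with a median log2 fold change of -0.59. Among all genes tested 46.4% were called, 24.5% higher and 22.0% lower. CDH3 (P-cadherin), a basal epithelial cadherin, fell from 17589 ± 2039 to 1890 ± 639 normalized counts, and CTNNA1 (alpha-catenin), which links cadherins to actin, from 10572 ± 390 to 1692 ± 42.7. CDH2 and NECTIN3 were at 0 counts in all 3 VprBP sh samples and were at least 67.5-fold and at least 57.9-fold lower, where 3 counts per sample served as the floor. NECTIN4 rose from 588 ± 119 to 2283 ± 103. CDH1 (E-cadherin), named after its value was seen, had 10015 ± 551 and 6477 ± 815 normalized counts and was not called. Of 10 genes whose products bind, cleave or phosphorylate claudins or their partners, 2 were called in edgeR and both fell, among them KLHL3 from 104 ± 23.4 to 41.9 ± 7.22 normalized counts. Without the fold limit, 8 of the 10 had an adjusted p under 0.05, as had 76.4% of all genes tested. With replicate 1 left out of either group 1 of the 10 was called. EPCAM, the partner of claudin-7, which was named after its value was seen, had 4419 ± 57.3 and 6019 ± 472 and was not called.

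Transcription factors known to act on junction genes were listed as well. Of 21, 16 were tested, of which 4 rose, 5 fell and 7 were not called, with a median log2 fold change of -0.21. Calls made up 46.4% of all genes tested, 24.5% higher and 22.0% lower. GRHL1 rose from 241 ± 71.3 to 2396 ± 343 normalized counts (log2 fold change 3.32 ± 0.20 SE, edgeR adjusted p = 3.26e-07) and GRHL3 from 145 ± 13.6 to 470 ± 80.1. These are Grainyhead-like factors, which drive epithelial junction genes. The Grainyhead-like letters AACCGGTT, on both strands, were in 0.132% of all promoter windows and in 0 of the 15 windows of the 9 genes. Letters so rare are seldom met in any 15 windows, so their absence here cannot decide anything about these factors. TFAP2C rose from 1029 ± 84.8 to 2098 ± 65.5, and TWIST2, a mesenchymal factor, had 0 counts in every Control sh sample and was at least 159-fold higher in VprBP sh. SNAI2 (Slug), a zinc finger repressor of the Snail family, had 1879, 1392 and 1630 counts under the control shRNA and none in the 3 VprBP sh libraries, at least 597-fold lower against a floor of 3 counts per sample. TWIST1 was at least 23.1-fold lower, KLF5 fell from 9685 ± 476 to 2061 ± 167 normalized counts, and OVOL1 from 221 ± 71.0 to 65.9 ± 24.0. SNAI1, named after its values were seen, had 40, 31 and 23 counts against 15, 26 and 25 and was not called. Among the Grainyhead-like genes GRHL2 had 2965 ± 54.3 and 2370 ± 99.3 normalized counts and was not called. Whether any of these factors acts on the 9 genes was not tested.

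Along the chromosomes, the 4 nearest tested protein-coding genes of CLDN1 all fell with it. These were TP63 (from 8840 ± 1005 to 9.35 ± 0.97 normalized counts), P3H2 (from 3837 ± 906 to 11.1 ± 7.76), CLDN16 and IL1RAP (from 1462 ± 238 to 239 ± 68.7). CLDN16 begins 94 bases from the start of CLDN1. Around CLDN3 and CLDN4 the values were mixed. ABHD11, 30.1 kb from CLDN3, rose from 123 ± 27.5 to 748 ± 37.1 normalized counts, METTL27, 1.90 kb from CLDN4, fell from 18.6 ± 7.80 to 7.77 ± 2.85, TMEM270 rose from 5.22 ± 0.80 to 33.2 ± 5.20, and STX1A was not called. Around TJP3, CLDN12, OCLN and MARVELD2 no neighbour was called. On the far side of CLDN7 from ELP5, SLC2A4 and YBX2 rose, YBX2 from 48.1 ± 1.74 to 1122 ± 165. Around TJP1, GOLGA8R, which has near-identical copies and is uncertain for that reason, fell and ARHGAP11B rose, both at least 431646 bases from it and with at most 122 normalized counts on average in either group. Over the 32 distinct neighbours, 4 of which belong to the 9 genes, 7 rose, 6 fell and 19 were not called. Calls made up 46.4% of all genes tested, 24.5% higher and 22.0% lower.

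**Figure D4:**
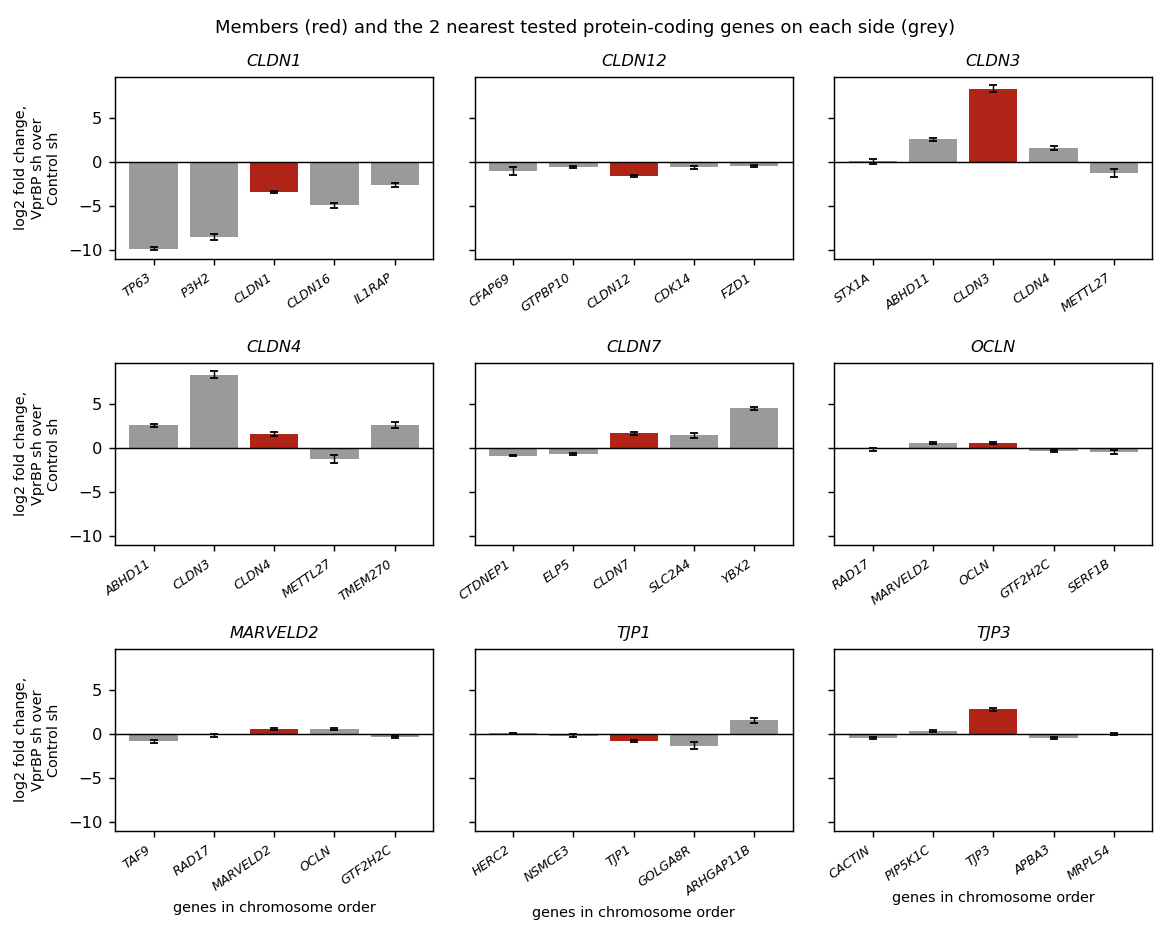
Log2 fold change of VprBP sh over Control sh with its standard error, for each of the 9 genes (red) and its 2 nearest tested protein-coding genes on each side (grey), in chromosome order and not to distance. All bars around CLDN1 point down, while the red bar of TJP3 stands alone among neighbours that were not called.

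Genes with the most similar pattern were looked for by the distance between profiles of log2(normalized counts + 1) over the 6 samples, each centred on its mean, among 12797 genes whose higher group averaged 100 normalized counts or more. Nearest to CLDN3 were SGSM1, ELAPOR1, SNTB1 and OLFM2, at distances of 1.08 to 1.15. ELAPOR1 gave 21, 14 and 12 counts in the Control sh samples and 4541, 5850 and 7852 in those of VprBP sh. Nearest to CLDN1 were KSR1, PROSER2, SLFN5 and FBXO32, at distances of 0.140 to 0.248. KSR1, the closest, gave 1084, 1220 and 1361 counts in the Control sh samples and 102, 120 and 178 in those of VprBP sh.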

How the data were processed

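RNA-seq was analysed for 6 samples, 3 Control sh and 3 VprBP sh, grouped by their titles. The authors aligned single-end reads to hg38 with STAR and counted per gene with Partek software, and they deposited estimated counts per gene, not normalized and not pooled; 40.6% of the values are not exactly whole and 19.2% are more than 0.1 from a whole number. The labels and the study's methods name different library kits. Whether counting used the strand is not given in the sources used here. Values were rounded and tested in edgeR 4.0.16 (R 4.3.3) by the quasi-likelihood test, with upper quartile factors (0.75), the filter on low counts (minimum 10) and no replicate block, over 16756 genes, in place of the Partek gene-specific test. The limits on adjusted p and fold change are those the study used. With its own test the study called far fewer genes, more of them up than down. Here 7778 were called, 4097 higher and 3681 lower, so the calls are not the same set. Alternatives used limma 3.58.1 and DESeq2 1.42.0 and are listed with their effect at the end. Standard errors are the log2 fold change over the square root of F. The floor of 3 counts equals 2.28 to 3.44 normalized counts and covers counting error only. Coordinates are those of the table, with the last base as in GENCODE 44, which also gave lengths and overlaps; promoters are RefSeq windows on GRCh38.p14, matched for all 9 genes by symbol. The tests were tried on simulated counts before use. The 9 genes and the lists were chosen with earlier results of these data known. Named from each list were the called genes with the largest means (up to 4 per direction), the 2 nearest tested protein-coding genes on each side and the 4 most similar profiles, besides DCAF1 and the 9 genes. Some genes of these lists are counted but not reported here by name. The replicate numbers were not treated as pairs, since the labels name no shared batch. The correlations of same-numbered deviations over 12112 genes were -0.18, -0.06 and -0.12, and those of other pairs ran from -0.14 to 0.16. Whether samples of the same number shared a batch is not known.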

Additional observations from a re-analysis of the deposited data

How the results depend on the processing

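All 9 genes kept their direction and their side of the calling limits in the 17 alternatives that could be run, 152 values in all; CLDN3 was not tested with at least 10 counts in every sample. The alternatives were TMM, library size alone, DESeq2, limma-voom, no filter, that stricter filter, a replicate block, glmTreat against 2-fold, unrounded counts, each sample left out, replicates 2 and 3 summed, and, chosen after seeing the data, replicate 1 of both groups left out. With the replicate number as a block 6 of the 9 genes were called, 4 up and 2 down, as without it, 7686 genes in all, and no call of the 9 genes changed. The log2 fold change was then -3.37 for CLDN1, 8.36 for CLDN3 and -0.60 for DCAF1 (adjusted p = 0.0274 from edgeR). DCAF1 had an adjusted p over 0.05 with library size alone (0.0851, log2 fold change -0.37) and with replicates 2 and 3 summed. It was also over 0.05 with glmTreat, which tests against 2-fold. With at least 10 counts in every sample, which drops genes that are off in a group, 4690 genes were called in all, 1 other claudin, 3 adherens junction genes and 5 transcription factors. With library size alone the median log2 fold change was 0.80 for the 9 genes and 0.29 for all genes. With DESeq2 the median was 0.46 for the 9 genes and -0.04 for all genes. Of the claudin partner genes, 1 was called with library size alone, 1 with replicate 1 of both groups left out and 0 with glmTreat in edgeR. In the plain edgeR test 8 of the 10 had an adjusted p under 0.05, as had 76.4% of all genes tested. DESeq2 and limma each called 2 of the 10. Leaving out each sample gave 1 to 2 of these genes, with 1 without Control sh replicate 1 and 1 without VprBP sh replicate 1. Of the 60 claudin shares under other lengths or without a sample, 20 moved by more than 1 SD, all of them under other lengths. Leaving out a sample cannot shift the mean of its group by that much, so those shares could not have moved.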
